A study of Mus musculus with 12 samples.

Results

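The genes described here encode the proteins of the cytosolic ribosome. They were taken from the gene names of the deposited table by a name pattern, namely Rps or Rpl with a number (and an optional suffix), Rplp0, Rplp1, Rplp2 and Rpsa, with 10 or more counts in at least 6 of the 12 libraries. The pattern matched 88 of 43346 names and 85 were kept, and all 85 passed the low-count filter of the test, as did 18965 genes in all. The kept genes comprised 31 small subunit genes, 43 large subunit genes, 3 genes of the P stalk, 5 paralogs with a suffix in their name (Rpl3l, Rpl7l1, Rpl22l1, Rpl39l and Rps27l) and 3 genes that GENCODE M21 lists as processed pseudogenes (Rps3a2, Rps3a3 and Rps4l). The 3 that were not kept were Rpl10l, with 1 count in all libraries together, Rps12l1 with 7 and Rps12l2 with 49.

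The libraries came from mouse veins taken 7 days after surgery, 6 of the jugular vein of sham mice and 6 of the venous limb of the AVF of AVF-CKD mice. AVF and CKD are left unexplained in the labels and are read here as arteriovenous fistula and chronic kidney disease; strain, age and sex are not stated. The groups therefore differ in surgery and may also differ in the vessel and in a kidney disease model, which cannot be told apart. Whether the libraries are from separate mice is not stated, so the p-values reflect only how far these samples spread, which may be in part technical. Libraries held 38653830 to 60142016 counts.

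Each cytosolic ribosome is built from a small subunit, which reads the mRNA, and a large subunit, which joins amino acids and carries the P stalk that recruits translation factors. Ribosomal protein genes lie scattered over the genome, yet outside the P stalk their products are used in equal numbers, and an excess of a free subunit is degraded. In vertebrates most of their mRNAs begin with a cytosine followed by a run of pyrimidines. This 5′ terminal oligopyrimidine (TOP) tract places their translation under the control of the mTOR kinase and the RNA-binding protein Larp1. The lists of genes around the ribosome are given below with the same test.

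The TOP tracts of 6 members are shown first because the tract is the feature that marks these mRNAs as a class. These 6 were picked for a tract exactly at the annotated start, found in 13 of the 62 members searched. The paralogs below them were not picked that way and have no tract at that position. The 30 bases run from 12 before the annotated RefSeq start (GRCm38.p6) to 18 from it, 5′ to 3′ on the strand of the gene, and capitals mark a C at the start with the C or T bases that follow it.
Rps6 (chr4:86857350-86857379, minus strand): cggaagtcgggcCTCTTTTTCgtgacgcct
Rps21 (chr2:180257367-180257396, plus strand): cgaggacccgccCTCCTgcccaatagtgct
Rps27 (chr3:90213631-90213660, minus strand): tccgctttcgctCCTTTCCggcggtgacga
Rpl15 (chr14:18270969-18270998, minus strand): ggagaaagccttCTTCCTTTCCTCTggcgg
Rpl38 (chr11:114668568-114668597, plus strand): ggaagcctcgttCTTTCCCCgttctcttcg
Rplp2 (chr7:141447639-141447668, plus strand): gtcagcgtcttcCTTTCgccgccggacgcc
Rps27l (chr9:66946074-66946103, plus strand): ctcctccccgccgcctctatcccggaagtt
Rpl3l (chr17:24727814-24727843, plus strand): tgttctagctctgtcatttgacctctggtg
Rpl39l (chr16:10170216-10170245, plus strand): ccaggcctttccggatttccggtggtcgcc
The tract covered 13 bases in Rpl15, 9 in Rps6 and 5 in Rps21 and Rplp2. None of the 3 paralogs shown had a tract at the annotated start, although Rps27l had one within 5 bases of it.

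The RefSeq promoter table held 62 of the 85 members. A tract of a C and at least 4 further C or T bases, beginning within 5 bases of the annotated start, was found in 29 of them (46.8%), against 21.2% of the 27025 genes in that table. Exactly at the start it was found in 13 (21.0%), against 3.01% of all genes, and in 0 of the 5 paralogs. Within 5 bases of the start, 2 of the 5 paralogs (40.0%) had one, against 47.4% of the subunit genes. In windows from 250 bases before to 50 after the start, searched on both strands, CCGGAAG, a motif of ETS-family factors, was present in 26 of the 62 members (41.9%), against 9.93% of all genes. The letters AAGATGGC, a YY1 motif that can share its AAG with the previous one, were present in 6 (9.68%, against 3.19%) and TATAAA in 7 (11.3%, against 15.7%). These matches describe the letters of the windows, and alternative starts in use in the vein were not measured.

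Ribosomal protein mRNAs were abundant and spanned a wide range of levels. Levels are compared between genes as CPM (read counts normalised to the scaled library size) per kb of the gene length in the deposited table. On that scale the 77 subunit genes ranged from 40.9 to 1822 CPM per kb with a median of 208.5, and the median over all genes tested was 4.75. The small subunit genes had a median of 323.8 CPM per kb and the large subunit genes one of 161. Rplp1, a P stalk protein gene (GRCm38 chromosome 9, 61913284 to 61914538), was highest at 1822 CPM per kb ± 365 (SD, n = 12). Among the next highest were Rpl32 (1026 ± 211), Rps12 (987 ± 193) and Rps15 (788 ± 163), and below them Rpl4 (717 ± 89.4), Rps27 (698 ± 174) and Rplp0 (698 ± 105). Rplp1 and Rpl32 were further apart than their spread over libraries, whereas Rpl32 and Rps12 were not, nor were Rps15, Rpl4, Rps27 and Rplp0 from one another. The genes were measured in the same libraries and share much of this spread. It therefore does not settle their order within a library, which was not tested.

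The order depends on the length used, because the deposited length counts all exonic bases of a gene, retained introns included. With the principal GENCODE transcript as length, chosen after the data were seen, Rplp1 stayed first at 1808 CPM per kb. Rpl41, which encodes the shortest ribosomal protein, moved from rank 13 to rank 2 with 1418, because its deposited length is 1168 bases and its transcript 437. Rpl4 moved from rank 6 to rank 22 and Rps27 from rank 7 to rank 31. Rpl32 shares 20.04% of its exonic bases with other gene models, and Rpl35, Rpl23a, Rpl24, Rpl13a, Rps10 and Rpl5 share 26.7% to 66.2%, so their levels are uncertain. Ribosomal protein genes also have many near-identical processed copies, and reads could be split among them. The 252 models named as such copies held 0.0685% to 0.119% of the counts.

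From library to library the genes moved up and down together. Relative to its own mean over the 12 libraries, every subunit gene (77 of 77) was above the mean in sham 1, sham 3, AVF-CKD 2 and AVF-CKD 3, and every one was below it in AVF-CKD 4, 5 and 6. The subunit genes averaged 0.45 above their means on the log2 scale in sham 3, 0.31 above in AVF-CKD 3 and 0.20 above in AVF-CKD 2. The lowest averages were -0.37 in AVF-CKD 5, -0.35 in AVF-CKD 6 and -0.22 in sham 4. Sham 3 was the highest library for 79 of the 85 members, and AVF-CKD 5 and AVF-CKD 6 were the lowest for 43 and 30 of them. The 6 libraries whose titles carry the numbers 1 to 3 all had positive averages (0.06 to 0.45), and the 6 with the numbers 4 to 6 all had negative ones (-0.37 to -0.03), in both groups. The labels give no batch, and what these numbers stand for is not stated.

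**Figure D1:**
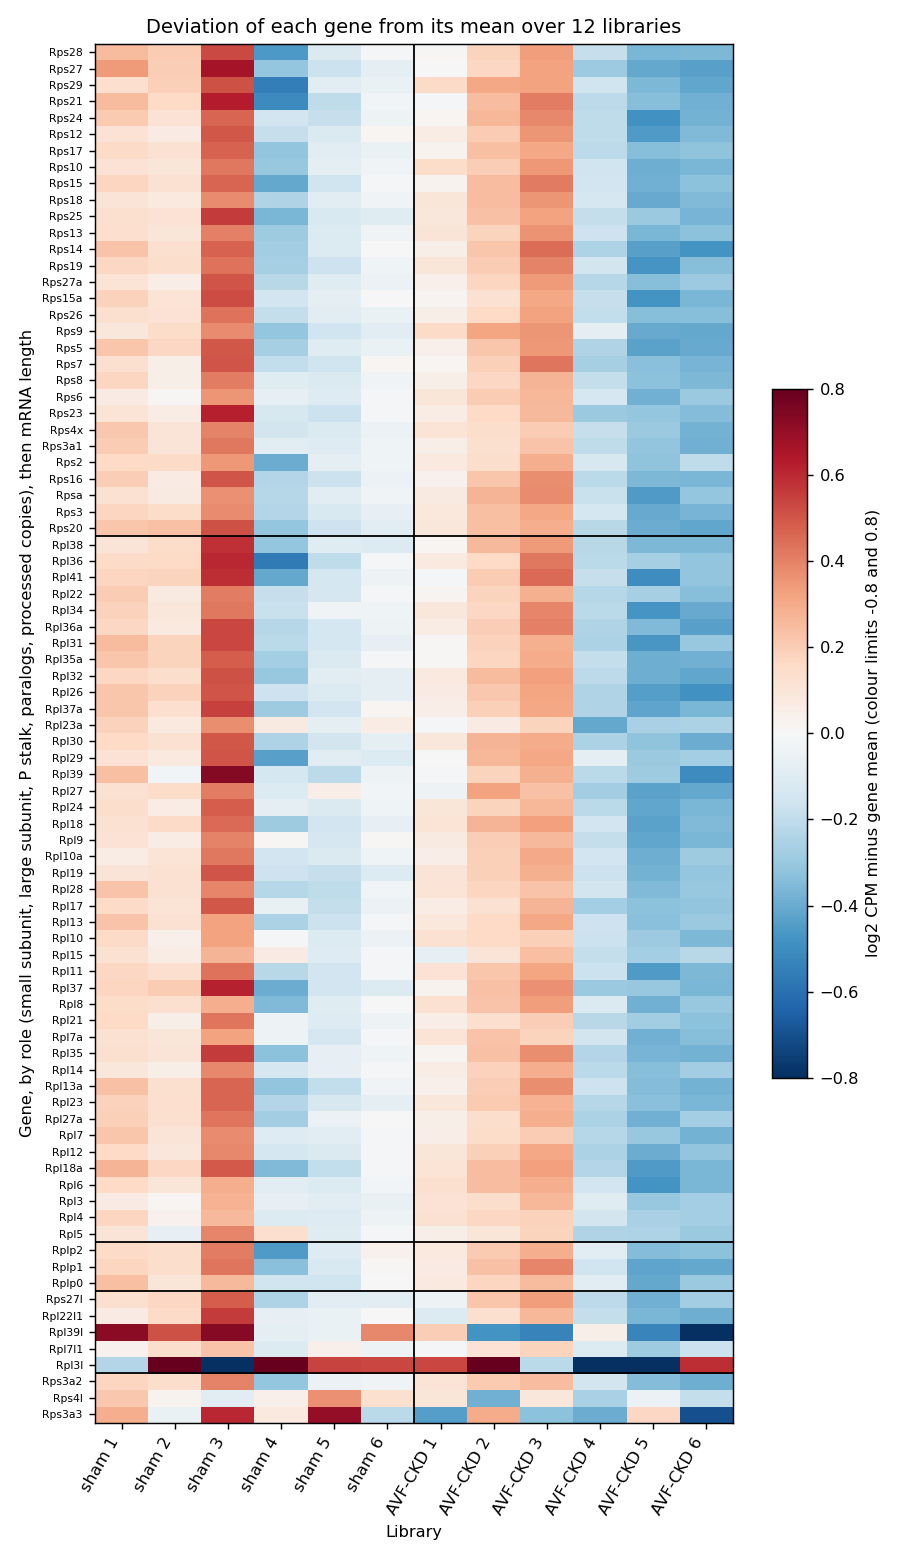
Colours show log2 CPM minus the gene's own mean over the 12 libraries for 84 of the 85 genes (rows, by role and then by mRNA length) in each library (columns, sham left of the line and AVF-CKD right of it). Nearly all rows change colour at the same libraries, with sham 3 red and AVF-CKD 5 and 6 blue. Rpl3l, Rpl39l and the processed copies Rps4l and Rps3a3 depart from that pattern.

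As a share of all counts, the 85 genes took 3.21%, 3.01%, 3.85%, 2.45%, 2.72% and 2.85% in sham 1 to 6. In AVF-CKD 1 to 6 they took 3.09%, 3.30%, 3.55%, 2.52%, 2.19% and 2.22%. The means were 3.01% ± 0.48 (SD, n = 6) and 2.81% ± 0.58 (SD, n = 6), and the groups overlapped over most of their range. Counting error adds at most 0.00563 percentage points to either side of a share (95% Wilson interval), far less than the differences between libraries. Within the numbers 1 to 3 the mean shares were 3.36% in sham and 3.32% in AVF-CKD, and within the numbers 4 to 6 they were 2.67% and 2.31%. In veins as in any bulk tissue, fewer cells of a type and less RNA per cell cannot be told apart. The ratio of small to large subunit counts, with the P stalk genes counted in the large subunit, stayed between 0.773 and 0.819 in all libraries.

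Ribosomal RNA was also represented in the counts, through 4 gene models at a ribosomal DNA copy. Their share was 3.90% to 6.26% in sham and 4.18% to 7.47% in AVF-CKD. The 4 highest shares were those of AVF-CKD 5 (7.47%), AVF-CKD 4 (6.57%), sham 2 (6.26%) and AVF-CKD 6 (6.23%). The share of the ribosomal protein genes was among the lowest in these AVF-CKD libraries, but not in sham 2. In sham 4, 5 and 6, whose ribosomal protein shares were also low, it was 5.08%, 5.03% and 3.90%. Its part in the shares of the ribosomal protein genes was not tested beyond taking these models and 7 nuclear copies of mitochondrial sequence out of the totals. The means were then 3.26% in sham and 3.05% in AVF-CKD.

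**Figure D2:**
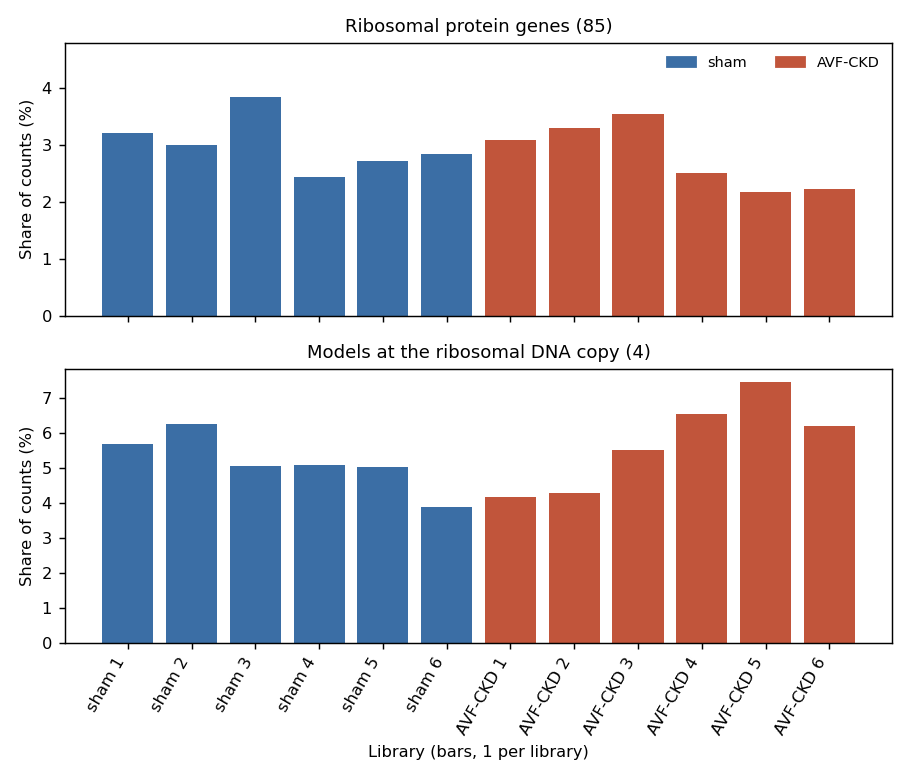
Bars give the percentage of all counts in each library for the 85 ribosomal protein genes (top) and for 4 models at a ribosomal DNA copy (bottom), sham in blue and AVF-CKD in red. Ribosomal protein shares were 3.01% or more in the libraries numbered 1 to 3 and 2.85% or less in those numbered 4 to 6, in both groups.

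The comparison of AVF-CKD with sham asks whether the fistula vein and the sham vein differ in the expression of these genes. No ribosomal protein gene was called in either direction by the edgeR quasi-likelihood test at an adjusted p below 0.05, where the background was 0% of 18965 genes for each direction. Below an unadjusted p of 0.05 there were 0 members higher, against 5.26% of all genes tested, and 2 lower (Rpl39l and Rps4l), against 4.08%. DESeq2 called 0.351% of genes higher and 0.209% lower, and limma voom called 0%. Neither called a member, and the lowest adjusted p of a member was 0.0723 in DESeq2. For no member were the groups free of overlap, against 0.417% of all genes with every AVF-CKD library above and 0.221% with every one below.

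The fold changes were nevertheless all on the same side of zero. All 85 had negative log2 fold changes, against 50.9% of all genes tested, with a median of -0.11 (median over all genes -0.0025) and a range from -0.73 for Rpl39l to -0.01 for Rps9. Small subunit genes had a median of -0.10, large subunit genes -0.11, P stalk genes -0.09, paralogs -0.22 and processed copies -0.23. Because these genes move together from library to library, the 85 signs are not independent of each other. The mean of the subunit genes stood 0.06 above their overall level in sham and 0.06 below it in AVF-CKD on the log2 scale, and its SD within groups was 0.27. With total counts and no scaling factors 84 were negative, and with voom 83.

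The size of this shift rested on single libraries. Without sham 3 the median was -0.03 and 23 of 85 members were positive. It was -0.05 without AVF-CKD 5 (12 positive) and -0.05 without AVF-CKD 6 (8 positive), while without AVF-CKD 3 it was -0.19. Within the libraries numbered 1 to 3 the median was -0.05 with 75 of 85 negative (50.1% of all genes). There 1 member was lower at an unadjusted p below 0.05 in edgeR, against 999 of all 19140 genes tested. Within those numbered 4 to 6 the median was -0.18 with 85 of 85 negative (50% of all genes). There 17 members were lower at such a p, against 978 of all 19097 genes tested. With that number set as a term in the model, an analysis chosen after the data were seen, the median was -0.12. In that fit 12 members were lower at such a p, against 1158 of all 18965 genes. As these genes move together, the members in such a count are not independent of each other. No member was called in any of these fits, and the difference between the sets of numbers was not tested.

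The intervals show how large a difference these libraries leave possible. For 81 of 85 members (95.3%) the 95% interval stayed inside 1.5-fold up or down, against 65.3% of all genes tested, and for 83 it lay within 2-fold. The intervals that reached beyond 1.5-fold were those of Rps27, Rpl3l, Rpl39l and Rps3a3.

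**Figure D3:**
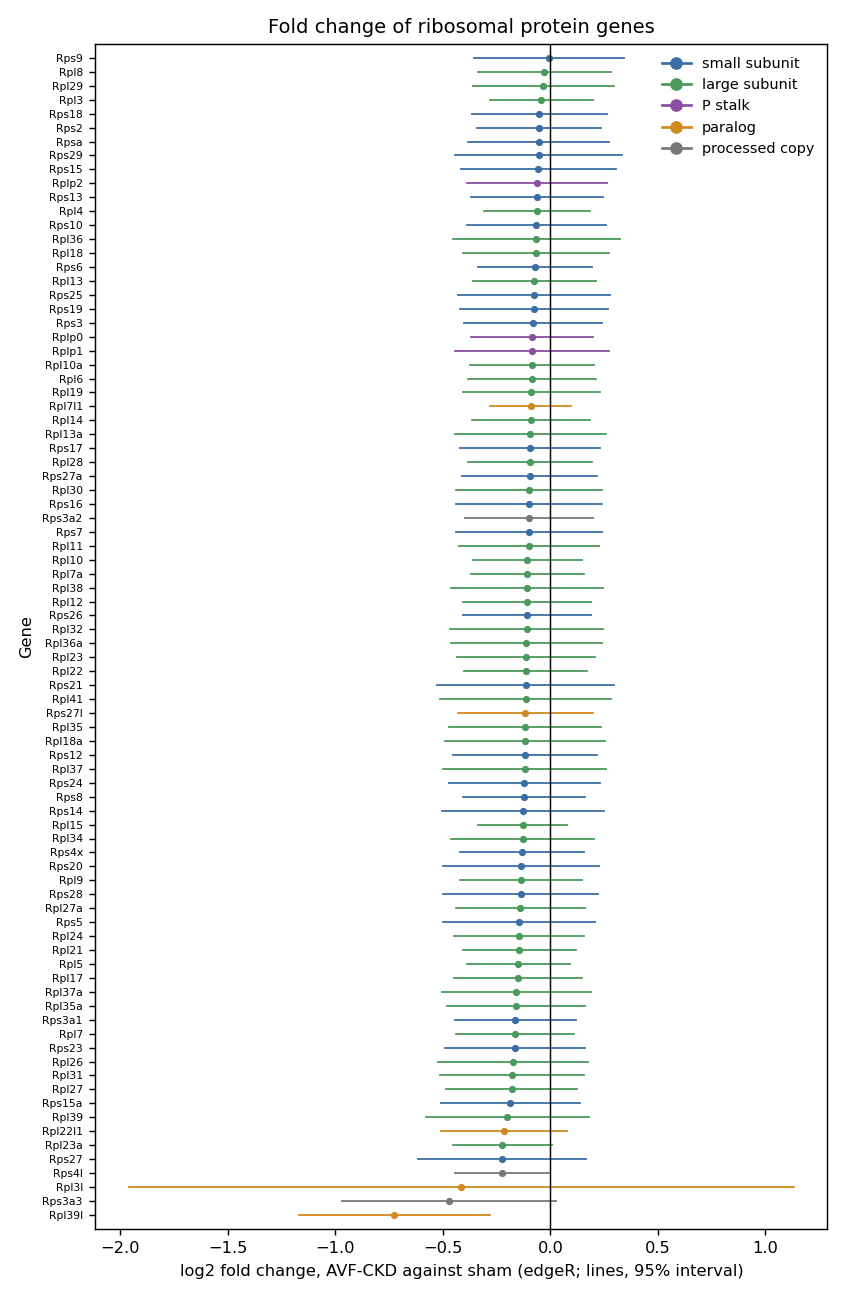
Points are log2 fold changes of AVF-CKD against sham from edgeR for 84 of the 85 genes, with 95% intervals as lines and the role of each gene in colour. All points lie left of 0, and the intervals of 2 genes, Rpl39l and Rps4l, do not reach it.

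The P stalk genes carry the acidic proteins that contact elongation factors. Rplp1 was at 701 CPM at the lowest, 935 at the median and 1193 at the highest in sham, and at 662, 860.0 and 1161 CPM in AVF-CKD, so the groups overlapped nearly throughout. Its log2 fold change was -0.09 with a 95% interval from -0.44 to 0.27 (edgeR adjusted p = 0.902). Rplp0, often used as a reference gene in PCR, was at 1024, 1187 and 1372 CPM (lowest, median, highest) in sham and at 864, 1143 and 1367 CPM in AVF-CKD. Rplp0 thus ranged from 864 to 1372 CPM over the libraries, and the groups overlapped. Rplp2 was at 225, 327 and 408 CPM in sham and 241, 307 and 376 CPM in AVF-CKD.

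Among small subunit genes, Rps6 encodes the substrate of S6 kinase and Rpsa a protein also known as the laminin receptor precursor. Rps6 was at 170, 182 and 233 CPM (lowest, median, highest) in sham and at 140, 181 and 219 CPM in AVF-CKD, with almost equal medians. Its log2 fold change was -0.07 with an interval from -0.34 to 0.19. Rpsa was at 584, 696 and 883 CPM in sham and at 499.5, 662 and 891 CPM in AVF-CKD. Rps19 and Rps14, known from Diamond-Blackfan anaemia and the 5q- syndrome of the bone marrow, had log2 fold changes of -0.08 ± 0.16 (SE) and -0.13 ± 0.17. Rps27a, which is made as a fusion with ubiquitin, had -0.10 ± 0.15, and Rps20 -0.14 ± 0.17. Rps9 was the member nearest to no difference, at 608, 757 and 981 CPM in sham and 568, 777 and 963 CPM in AVF-CKD.

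Rpl5 and Rpl11 bind the p53 regulator Mdm2 when ribosome assembly fails. Rpl5 was at 224, 248 and 315 CPM in sham and at 196, 226 and 272 CPM in AVF-CKD. Its log2 fold change was -0.15 with an interval from -0.39 to 0.09. Rpl11 was at 182, 222 and 287 CPM in sham and at 155, 209 and 264 CPM in AVF-CKD. Both groups overlapped for both genes. Rpl38, known for its role in the translation of Hox mRNAs, was at 106, 132 and 197 CPM in sham and 102, 123 and 166 CPM in AVF-CKD. Rpl23a had the largest difference among subunit genes after Rps27, at -0.22 ± 0.11 on the log2 scale (SE; adjusted p = 0.542 in edgeR), but 62.3% of its exonic bases overlap other models. Rps27 was at 140, 182 and 275 CPM in sham and 128, 158 and 216 CPM in AVF-CKD (-0.23 ± 0.18).

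Subtracting the mean of the 77 subunit genes in each library left little variation. The SD of log2 CPM over the 12 libraries had a median of 0.27 for the 85 members, against 0.25 for all genes tested. After subtraction the SD of the subunit genes had a median of 0.059 and ranged from 0.025 for Rpl23 and 0.026 for Rps26 to 0.14 for Rpl23a and Rpl5. Since these genes make up the mean that was subtracted, a low value is in part built in. Of the 18880 genes that are not members, 6 had an SD at or below that median and 572 (3.03%) at or below that maximum. Subunit genes that the name pattern misses were among the latter: Fau (0.072), Gnb2l1 (0.064), which encodes Rack1, and Rpl36al (0.083). Fau encodes the ubiquitin-like fusion that yields Rps30. Their log2 fold changes were -0.07 for Fau, -0.06 for Gnb2l1 and -0.10 for Rpl36al, and none was called by edgeR (adjusted p from 0.869 to 0.934), DESeq2 or voom.

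The spread was wider for short mRNAs. Spearman's rho between mRNA length and the SD over libraries was -0.54 across the 77 subunit genes, and -0.58 without Rps20, whose principal transcript is listed with the greatest length. These genes share their libraries and are not independent replicates. The median SD was 0.29 for the 18 subunit genes under 500 bases and 0.28 for the 21 from 500 to below 700. It was 0.24 for the 22 from 700 to below 1000 and 0.25 for the 16 of 1000 bases or more, so it did not fall further there. The widest were Rps21 (0.35), Rps27 (0.34), Rpl41 (0.33), Rpl36 (0.33) and Rps29 (0.33), and the narrowest Rpl15 (0.18), Rpl4 (0.18) and Rpl3 (0.19). Rps21 was at 225 to 496 CPM in sham and 246 to 425 CPM in AVF-CKD, whereas Rpl15 was at 90.7 to 118 CPM and 80.7 to 115 CPM. Between short and long subunit genes the gap within a library was widest in sham 3, where the short ones stood 0.51 above their means and the long ones 0.38, and in sham 4, where they stood at -0.31 and -0.20. In AVF-CKD 1 the order was the other way, at 0.023 and 0.082, and in AVF-CKD 5 (-0.38 and -0.37) and AVF-CKD 6 (-0.36 and -0.34) the gap was small although the ribosomal protein levels were the lowest.

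Other coding genes showed a gradient of the same direction. Their median SD was 0.29 under 500 bases (212 genes) and 0.22 at 1000 bases or more, though rho over 14909 other coding genes was only -0.09. The short ones of these stood 0.14 above their means in sham 3, at -0.06 in sham 4 and at -0.21 and -0.16 in AVF-CKD 5 and 6. Short minus long was 0.14, -0.08, -0.23 and -0.17 for these genes in the same libraries. For the subunit genes it was 0.12, -0.11, -0.01 and -0.03. Sham 3 was highest in both sets, and AVF-CKD 3 came next in both (0.13 for the other coding genes and 0.06 for the subunit genes). The lowest library was AVF-CKD 5 for the other coding genes and sham 4 for the subunit genes. The part that recovery of short RNAs has in the spread of the ribosomal protein genes was not tested.

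**Figure D4:**
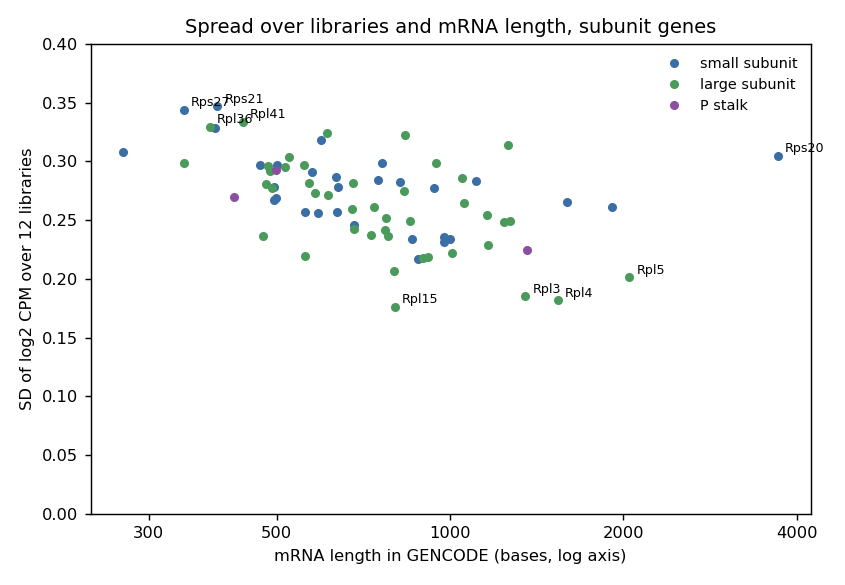
Each point is 1 of 76 subunit genes, with the length of its principal GENCODE transcript (log axis) against the SD of its log2 CPM over the 12 libraries, coloured by subunit. The SD is 0.35 for Rps21 and 0.18 for Rpl4, and Rps20 lies apart at the right.

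Paralogs differ from the main genes in where they are known to be expressed. Rpl3l replaces Rpl3 in ribosomes of striated muscle, Rpl39l is best known from the testis, and Rpl10l, a testis paralog of Rpl10, had 1 count here. Rpl3l (chromosome 17, 24727820 to 24736143) was at 7.20, 19.95, 1.27, 35.2, 12.3 and 12.3 CPM in sham 1 to 6. In AVF-CKD 1 to 6 it was at 12.3, 29.9, 7.30, 1.99, 2.09 and 12.8 CPM. It was thus the most variable member, with an SD of 1.53 on the log2 scale, and both groups held low and high libraries. Its log2 fold change was -0.41 with an interval from -1.96 to 1.13 (edgeR adjusted p = 0.891), and it was 0.79 within the libraries numbered 1 to 3 and -1.82 within those numbered 4 to 6. Without sham 4 it was 0.06.

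Skeletal muscle genes varied in the same libraries. The summed level of 10 skeletal muscle genes, all of which were measured in the libraries, ranged from 579 to 14878 CPM in sham and from 1020.5 to 14617 CPM in AVF-CKD. Sham 4 (14878) and AVF-CKD 2 (14617) were highest for both, and sham 3 (579), AVF-CKD 5 (1020.5) and AVF-CKD 4 (1358) were lowest for both. Its part in the level of Rpl3l was not tested. As a ratio of length-scaled CPM, Rpl3l stood at 0.534% to 18.9% of Rpl3, while Rpl3 itself stayed between 299.8 and 449 CPM in all 12 libraries.

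Rpl39l (chromosome 16, 10170226 to 10174911) had the lowest unadjusted p of the members. It was at 14.0, 12.1, 14.1, 8.06, 8.16 and 11.05 CPM in sham 1 to 6 and at 9.70, 6.07, 5.86, 8.76, 5.87 and 4.48 CPM in AVF-CKD 1 to 6. The 4 sham libraries 1, 2, 3 and 6 were above every AVF-CKD library, and sham 4 and 5 lay among them. Its log2 fold change was -0.73 ± 0.21 (SE), with an interval from -1.17 to -0.28, and it did not pass the test over all genes (edgeR adjusted p = 0.396). The adjusted p ranged from 0.0723 (DESeq2) to 0.698 over the alternatives. The fold change was -0.89 within the libraries numbered 1 to 3 and -0.51 within those numbered 4 to 6. Rpl39l stood at 2.97% to 7.53% of Rpl39, with medians of 6.40% in sham and 4.16% in AVF-CKD.

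**Figure D5:**
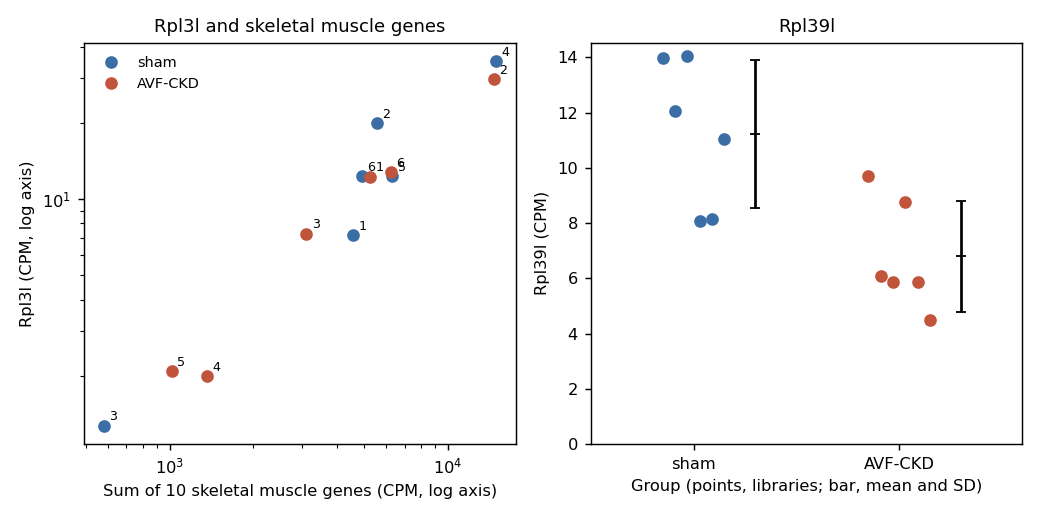
Left, CPM of Rpl3l against the summed CPM of 10 skeletal muscle genes (both log axes), 1 point per library with its number. Right, CPM of Rpl39l by group with the mean and SD beside the points; sham lay between 8.06 and 14.1 CPM and AVF-CKD between 4.48 and 9.70 CPM.

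The remaining paralogs kept nearly constant ratios to their main genes. Rpl22l1 was at 45.8% to 56.0% of Rpl22, and Rps27l, a p53 target, at 13.5% to 17.4% of Rps27. Rpl7l1, whose product acts in ribosome assembly rather than in the mature subunit, was at 10.45% to 13.7% of Rpl7. Rpl36al was at 46.0% to 57.6% of Rpl36a. The level of these ratios depends on the length. With principal transcripts the median was 31.0% in place of 50.3% for Rpl22l1 and 35.2% in place of 15.9% for Rps27l, whereas differences between libraries do not depend on it. Rpl22l1 was at 82.7, 88.5 and 128 CPM (lowest, median, highest) in sham and at 66.0, 78.0 and 104 CPM in AVF-CKD. The log2 difference between the groups was -0.22 ± 0.14 (SE). Rpl7l1 followed the subunit genes less closely (SD of 0.13 after subtraction) than Rps27l (0.051).

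Of the 3 processed copies, Rps3a2 was at 46.7, 60.2 and 76.0 CPM in sham and 44.1, 57.3 and 68.5 CPM in AVF-CKD and varied with the subunit genes (SD of 0.050 after subtraction). Rps4l, an intronless copy of Rps4x, was at 26.3, 29.7 and 36.1 CPM in sham and 21.5, 25.8 and 30.0 CPM in AVF-CKD. Its log2 fold change was -0.23 ± 0.10 (SE; edgeR adjusted p = 0.519). Unlike Rps3a2 it did not follow the subunit genes (SD of 0.32 after subtraction). Rps3a3 was the lowest member, at 16 to 40 counts per library. Reads from the copies and their parent genes are hard to separate, so these values are uncertain.

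Genes around the ribosome were tested in the same fit, in lists chosen with earlier results of these data known. Of 19 translation factors and other TOP mRNAs 0 were called, with 4 positive and 15 negative fold changes (median -0.06). Eef1a1, which encodes an elongation factor, averaged 5025 CPM with an SD of 433 in sham and 4855 CPM with an SD of 598 in AVF-CKD. Eef1b2, which reloads that factor with GTP, had an SD of 0.057 after subtraction of the subunit mean, within the range of the subunit genes, and Eef1a1 one of 0.13. At an unadjusted p below 0.05 Pabpc1, the poly(A)-binding protein gene, had a positive fold change (0.16) and Eif4a2, an initiation helicase gene, a negative one (-0.23).

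Of 30 genes of ribosome assembly and RNA polymerase I, 0 were called, with 12 positive and 18 negative fold changes (median -0.02), and none had an unadjusted p below 0.05. Their SD after subtraction of the subunit mean ranged from 0.10 for Polr1c to 0.47 for Utp20. It was 0.29 for Ncl, which encodes nucleolin, and 0.19 for Fbl, which encodes fibrillarin. Before subtraction the SD of Ncl was 0.13 and that of Fbl 0.19. Polr1c and Nip7 (0.11) lay below the subunit maximum of 0.14. Of 17 genes of the mTOR pathway with Larp1, 0 were called, with 10 positive and 7 negative fold changes (median 0.02). Larp1, which binds TOP tracts, had a log2 fold change of 0.16 ± 0.08 (SE; adjusted p = 0.547 in edgeR), and Mtor one of 0.14 ± 0.08.

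Cell types were followed by marker lists, in which edgeR and voom called 0 genes and DESeq2 2, both of the fat list. Fat genes were negative in 7 of 7 (median -0.91), with 5 at an unadjusted p below 0.05 in edgeR. The 2 called by DESeq2, chosen here after their values were seen, were Adipoq (-1.18, adjusted p = 0.0391), which encodes adiponectin, and Retn (-1.54, adjusted p = 0.0232), which encodes resistin. In edgeR their adjusted p was 0.39. The list had a summed level of 977.5 to 4267 CPM in sham, highest in sham 6, and 773 to 1566 CPM in AVF-CKD. Smooth muscle genes were negative in 6 of 7 (median -0.31), with 2 at an unadjusted p below 0.05 in edgeR and sums of 1446 to 2320 CPM and 1073 to 1881 CPM. Endothelial genes were negative in 6 of 7 (median -0.14), macrophage and leukocyte genes in 2 of 6 (median 0.22), fibroblast genes in 2 of 6 (median 0.07) and proliferation genes in 0 of 6 (median 0.10). The 2 negative leukocyte genes were at low levels: Cd3e averaged 2.91 CPM in sham and 2.42 in AVF-CKD, and Cd79a 2.35 and 1.71. The 4 positive ones ranged from 0.20 for Lyz2 to 0.32 for Csf1r. Epithelial and glandular genes were negative in 5 of 5 (median -0.61) and summed to 35.2 CPM in sham 6 and to at most 15.7 CPM elsewhere. Skeletal muscle genes, whose sums are given above, were negative in 8 of 10 (median -0.23). The highest ribosomal protein levels were in sham 3, where fibroblast genes summed to 37083 CPM (range over sham 37083 to 60350). In AVF-CKD 5 and 6, the lowest ones, they summed to 58380 and 62226 CPM (range over AVF-CKD 34995 to 62226). In AVF-CKD 1 to 4 they summed to 40404, 37411, 34995 and 56859 CPM, where ribosomal protein averages stood at 0.06, 0.20, 0.31 and -0.20. Within sham, ribosomal protein levels did not fall as these sums rose. Sham 1, with the highest sum there, stood 0.17 above the mean level, and sham 5, at 38024 CPM, stood at -0.12. The collagen genes Col3a1, Col1a2 and Col1a1 made up most of the fibroblast sums (30244, 15584 and 12996 CPM in AVF-CKD 6). Of the same list, Dcn and Lum were highest among AVF-CKD libraries in AVF-CKD 5 (4198 and 1487 CPM). In AVF-CKD 6 they were at 2329 and 881 CPM. The part of these cell types in the levels of the ribosomal protein genes was not tested.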

How the data were processed

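RNA of 12 mouse vein samples was prepared with the TruSeq RNA v2 kit, per the labels' protocols. Per the file headers, the authors deposited, by gene and library, read counts and RPKM values. The submitters' processing notes name GRCm38, TopHat2 2.1.0, featureCounts and edgeR. No annotation or strand setting was found there, so overlapping genes cannot be told apart. The deposited RPKM values were not used for tests. The members and lists were chosen with earlier results of these data known. Members were named for the highest levels (8 genes), paralog pairs, the smallest p, the widest and narrowest spread, and known roles, with the most abundant gene of each list. A few genes that this rule picked are not reported here. Rps26, Rpl23, Rpl36, Rpl41, Rps29, Rps9, the processed copies, Pabpc1, Eif4a2, Eef1b2, Ncl, Fbl, Mtor, Larp1, Col1a1, Col1a2, Dcn and Lum were named after their values were seen. So were Nip7, Polr1c, Utp20, Csf1r, Cd3e and Cd79a.

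Counts were filtered with filterByExpr, scaled by TMM and compared by group alone in edgeR 4.0.16 under R 4.3.3 (quasi-likelihood F-test, Benjamini-Hochberg adjustment over all genes tested). The common dispersion was 0.0588. CPM use scaled library sizes. A prior count of 2 was added for log2 CPM. The fit was tested on simulated data in which each gene varied independently, so that check does not cover genes that move together. Alternatives were other scaling, 2 filters, DESeq2 1.42.0, voom with weights (limma 3.58.1), a block, number sets, removal of ribosomal DNA models and leaving out each library. Of the table's gene IDs, 42462 were found in GENCODE M21, which gave transcripts and overlaps. Chi-square per degree of freedom between libraries was 47.8 to 212 over 66 pairs, so none agreed within sampling noise. The number of columns of other series was 0.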

Additional observations from a re-analysis of the deposited data

Results flagged for a closer look

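In the sham group 3 values stood apart from the other 5 libraries by more than Dixon's 95% limit for 6 samples, of 120 groups of 6 examined, and chance alone flags about 1 in 20 groups. Rps6 was at 233 CPM in sham 3, with the next sham library at 191 CPM and the lowest at 170 CPM. Rpl22l1 was at 128 CPM in sham 3, with the next at 96.4 CPM and the lowest at 82.7 CPM. Sham 3 was also the highest library for 79 of the 85 ribosomal protein genes. Ccna2, a cyclin gene of the proliferation list, was at 74.0 CPM in sham 5, with the next at 50.1 CPM and the lowest at 38.8 CPM.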

How the results depend on the processing

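No ribosomal protein gene was called under any alternative, and the median log2 fold change stayed negative, from -0.19 to -0.03 when each library was left out. With the title number as a replicate block the median was -0.12, with 0 members called. At an unadjusted p below 0.05 in edgeR, 10 members were then lower, against 892 of all 18965 genes. Without the block 2 members were lower, against 774 of all genes. Correlations of same-numbered libraries ranged from -0.11 to 0.28, and only number 3 matched its own best, so the numbers were not taken to pair samples. The share of members with a TOP tract was 46.8% near the start and 21.0% exactly at it. Among named genes 14 values changed sign under alternatives other than leaving out a library, and 598 did not. Within the numbers 1 to 3 these were Rpl3 (0.049), Rpl3l (0.79), Rpl36al (0.014), Rpsa (0.055), Rps6 (0.039), Gnb2l1 (0.046), Eif4ebp1 (0.0098), Acta1 (1.33) and Col3a1 (-0.33). Within the numbers 4 to 6 they were Aqp5 (0.21) and Ccna2 (-0.14), with voom Eif4ebp1 (0.011) and Acta1 (0.093), and with the block Acta1 (0.038). The cause was not tested. Leaving out each library moved the log2 fold change across 0 for these genes: Rps15 (-0.16 to 0.037), Rpl3 (-0.10 to 0.011), Rpl3l (-1.01 to 0.056), Rps21 (-0.22 to 0.015), Rplp2 (-0.14 to 0.016), Rpsa (-0.14 to 0.022), Rps27a (-0.18 to 0.0041), Rps19 (-0.17 to 0.0069), Rpl38 (-0.19 to 0.014), Fau (-0.16 to 0.035), Gnb2l1 (-0.13 to 0.011), Eif4ebp1 (-0.094 to 0.026), Acta1 (-0.69 to 0.35) and Ccna2 (-0.024 to 0.18). Depth does not limit the subunit genes, but Rps3a3 rests on 16 to 40 counts per library.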
